A study of Saccharomyces cerevisiae with 12 samples.

Results

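The comparison described here sets yeast grown on the C2 compounds ethanol and acetate against yeast grown on the sugars maltose and glucose, across the whole genome and with the genes of central carbon metabolism set aside. It used all 12 arrays of the series, 3 per carbon source, so that 6 arrays from C2 cultures stood against 6 from sugar cultures, and the 4 sources counted equally. Of 9275 probe sets that are not controls, 7176 had a signal above 12 on at least 3 of the 12 arrays and were tested. They cover 5325 genes, of which 141 belong to 7 lists of central carbon metabolism and 5184 lie outside them. Within these 5184, the genes of interest are the 2635 whose change had 1 sign in each of the 4 pairings of a C2 compound with a sugar, and above all the 672 that were also called in the combined comparison. Just inside the signal limit, 165 probe sets were above 12 on exactly 3 arrays. Just outside it, 194 were above 12 on exactly 2.

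Saccharomyces cerevisiae CEN.PK113-7D, a haploid MATa laboratory strain, was grown in aerobic chemostats fed a defined mineral medium in which glucose, maltose, ethanol or acetate limited growth. All cultures were kept at pH 5 and 30 °C and diluted at 0.1 per hour, each was hybridised to its own Affymetrix Yeast Genome S98 array, and no group carried a mutation or an added agent. The labels for the glucose arrays come from older records with their own protocol text, which gives a dissolved oxygen level above 80% of air saturation against 60 to 75% for the other sources, so record and glucose cannot be told apart. The deposited unit is a scaled probe set signal, a linear brightness. The p-values measure only the spread between the 3 arrays of a source, which may be partly technical.

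Ethanol and acetate enter yeast metabolism as acetyl-CoA, which the cell must both respire and turn into sugar phosphates, while maltose and glucose enter at the top of glycolysis. Growth on C2 compounds depends on genes that high glucose represses, and the kinase Snf1 and the activators Cat8, Sip4 and Adr1 switch many of them on. In sugar-limited chemostats the residual sugar is low, so these cultures are largely derepressed and fully respiratory as well. Outside carbon metabolism, the carbon source is known to touch stress genes, nitrogen uptake, lipid synthesis and the cell surface.

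Some properties of the arrays touch many of the values below. The 3'/5' signal ratio of the actin control, which rises when RNA is degraded or incompletely copied, reached 9.27 (array 2) and 13.98 (array 3) on ethanol and 10.2 (array 2) and 13.1 (array 3) on acetate, and was 3.31 or less on the other 8. Because the high ratios fell on C2 cultures alone, counts are also given for array 1 of each C2 source alone, and with the mean 3'/5' ratio as covariate. Maltose array 2 had a median signal of 22.8 against 41.8 to 48.5 on the other 11. Glucose array 1 stood apart in some genes: MF(ALPHA)1, the alpha-factor gene of the opposite mating type, read 232 there and 16.0 to 41.6 elsewhere. The brightest probe set read 3733 on glucose array 1 and 3765 on glucose array 3, where the others reached 7332 to 14807. Of 61 genes that exceeded 2000 on every other array, 10 read under 50% of glucose array 2 on both of these arrays, and the part of this in the rises of very bright genes was not tested.

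Across the genome 762 of 5325 genes passed an adjusted p of 0.05 in the combined comparison (14.3%), 437 higher (8.21%) and 325 lower (6.10%) on C2 compounds, and the median change of all genes was log2 0.09. The list counts below are to be read beside these shares. Some genes stand in several lists, so the counts of different lists are not independent. By probe set, 66.7% of the calls were higher, and 56.5% were after quantile normalization. A change of 1 sign in all 4 pairs was common, since 51.6% of genes had it, called or not. Genes called with 1 sign made up 14.0% of those tested. Outside central carbon metabolism 388 such genes were higher and 284 lower, and 439 of these 672 belong to none of the lists used here. Of these genes 5 risers had all 6 sugar arrays at the floor of 12 and 2 fallers all 6 C2 arrays, so they passed the signal limit through 1 side only. Changes were mostly moderate: 78 of the 388 and 85 of the 284 were at least 2-fold. The 6 C2 arrays and the 6 sugar arrays did not overlap for 174 of the higher and 90 of the lower genes, where 6.69% of all genes had separate groups. In the central carbon lists 79 of 141 genes were called (46 higher and 33 lower), and outside them 391 were higher and 292 lower.

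**Figure D1:**
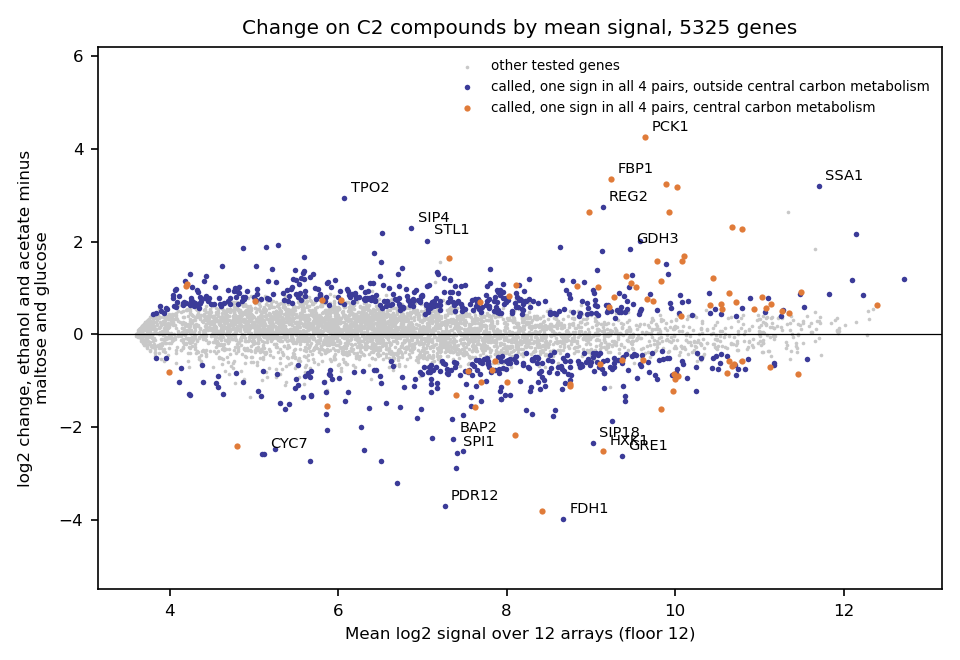
Each point is 1 of 5325 genes, with the mean log2 signal over 12 arrays on the horizontal axis and the log2 change on C2 compounds on the vertical axis. Blue points are the 672 called genes with 1 sign in all 4 pairs outside central carbon metabolism, orange points those inside it and grey points all others. SSA1, the bright blue point at the right, read 0.0 and 98.1 on glucose arrays 1 and 3.

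Counted by probe set, 1225 of 7176 were called in the combined comparison (17.1%). Pair by pair, 134 genes were called for ethanol against glucose (2.52%), 326 for ethanol against maltose (6.12%), 236 for acetate against glucose (4.43%) and 516 for acetate against maltose (9.69%). These pairs share arrays, so their counts are not independent. Between ethanol and acetate 1 gene was called (0.0188%), and between maltose and glucose 11 were (0.207%). A total of 74 genes were called in each of the 4 pairs with 1 sign (1.39%), 28 higher and 19 lower of them outside central carbon metabolism. On array 1 of each C2 source alone, thus 2 C2 arrays, 97 genes were called (1.82%), 66 higher (1.24%) and 31 lower (0.582%). Of the 672 genes, 54 were then still called and 671 kept their sign, on arrays that both settings share. With the covariate 125 genes were called (2.35%), 68 higher (1.28%) and 57 lower (1.07%). Of the 672, 85 were called and 658 kept their sign. Leaving out single arrays moved the gene counts most without acetate array 2 (257 higher, 203 lower), without acetate array 3 (258 and 192), without ethanol array 3 (276 higher), without glucose array 3 (273 higher) and without maltose array 3 (672 higher). Among the 9 arrays whose description carries the code letter P, 249 genes were higher and 228 lower.

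The 5 genes named as markers of the comparison separated the groups completely. PCK1, which encodes phosphoenolpyruvate carboxykinase, read 2870 to 4017 (median 3710) on the C2 arrays against 118 to 225 (median 199.7) on the sugar arrays, and FBP1, encoding fructose-1,6-bisphosphatase, read 1548 to 2695 (median 1875) on the C2 arrays against 119 to 248 (median 198) on the sugar arrays. The first catalyses the first dedicated step of gluconeogenesis and the other acts near its end. HXK1, a hexokinase gene, ran the other way, 182 to 302 (median 251) on the C2 arrays against 836 to 1941 (median 1498) on the sugar arrays. REG2 and PDR12, which lie outside carbon metabolism, are described with their groups.

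**Figure D2:**
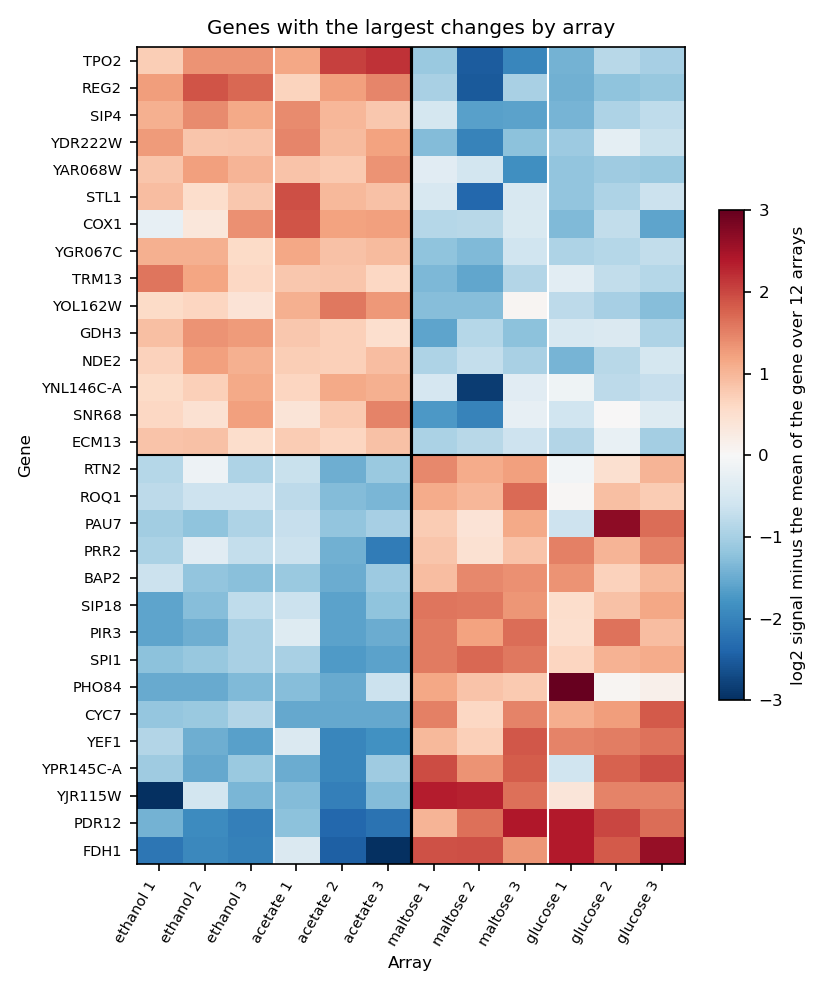
Rows are the 15 genes with the largest rises and the 15 with the largest falls among called genes outside central carbon metabolism whose groups did not overlap, and columns are the 12 arrays. Colour gives the log2 signal minus the mean of the gene, limited to 3 either way. PHO84 on glucose array 1, at 924, and PAU7 on glucose array 2, at 494, stand out from the other arrays of their source.

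Single regulators of carbon source use were among the largest rises. REG2, a regulatory subunit of protein phosphatase 1 that restrains Snf1 signalling, read 1356, 2082 and 1879 on ethanol, 898, 1315 and 1554 on acetate, 290.0, 98.8 and 288 on maltose and 209, 246 and 258 on glucose arrays. The lowest C2 array was more than 3 times the highest sugar array, and the gene rose 6.69-fold (log2 2.74 ± 0.24, adjusted p = 1.19e-06) (SE, 6 arrays against 6). Its relative REG1, the main regulatory subunit in glucose repression, was at log2 -0.19 ± 0.26 and was not called (adjusted p = 0.66). SIP4, a zinc cluster activator of gluconeogenic genes, rose 4.87-fold (log2 2.28 ± 0.22, adjusted p = 4.27e-06). It read 245, 313 and 258 on ethanol, 313, 234 and 204 on acetate, 81.2, 37.8 and 38.3 on maltose and 44.5, 61.2 and 69.0 on glucose arrays, with maltose array 1 the highest of the sugar arrays. YGR067C, a predicted zinc finger protein gene related to ADR1, rose 3.7-fold (log2 1.89 ± 0.15, adjusted p = 4.14e-07) from 158 to 259.6 on sugars to 585 to 884 on C2 compounds. It was also called on array 1 of each C2 source alone (log2 2.05) and with the covariate (log2 2.19).

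Other regulators moved less and in both directions. ADR1, the activator of alcohol and peroxisomal genes, rose 2.19-fold (log2 1.13 ± 0.28, adjusted p = 0.0133) with groups that overlapped by 1 array, since ethanol array 3 read 50.2. Of 23 transcription factors of carbon source use, 4 were higher and 4 lower (median log2 -0.22 against 0.09 for all genes). The shares of all genes were 8.21% higher and 6.10% lower. NRG2, a repressor gene of the glucose pathway, fell 2.03-fold (log2 -1.02 ± 0.17, adjusted p = 0.000986), with glucose array 1 at 221 inside the C2 range. MIG2, the gene of another glucose repressor, was at the floor of 12 on all 3 ethanol arrays and fell at least 2.04-fold. In the list of protein phosphatase 1, protein kinase A and Snf1 signalling, 3 of 29 genes were higher and 4 lower (median log2 0.01). GIP2, of this list, and GAC1, of the trehalose and glycogen list, encode subunits that direct the phosphatase to glycogen metabolism. They fell 2.24-fold (log2 -1.16 ± 0.25, adjusted p = 0.00476) and 3.04-fold (log2 -1.60 ± 0.30, adjusted p = 0.00242). RAS1, a small GTPase gene upstream of protein kinase A, was called lower (log2 -0.91 ± 0.26) and was at log2 0.0085 with the covariate. That call ended without ethanol or acetate array 2 or 3, maltose array 1 or glucose array 1 or 2 (adjusted p up to 0.0788). In the signalling list 1 gene was higher without ethanol array 1 or 3, acetate array 2 or glucose array 2. There 2 were lower without ethanol array 3, acetate array 2 or 3 or glucose array 2. The medians of the transcription factor and signalling lists were log2 -0.02 and 0.14 on array 1 of each C2 source alone. With the covariate they were 0.09 and 0.33. The median of all genes was log2 0.15 and 0.26 in these settings.

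Transporters formed the next group of strong risers. TPO2, a plasma membrane exporter of polyamines that is also a target of the weak acid response, read 113, 171 and 171 on ethanol, 149.7, 278 and 305 on acetate, 30.9, 12 and 17.4 on maltose and 25.2, 37.9 and 33.7 on glucose arrays. All C2 arrays were above all sugar arrays, maltose array 2 was at the floor, and the gene rose 7.65-fold (log2 2.94 ± 0.27, adjusted p = 2.79e-06). STL1, which encodes a glycerol/proton symporter, rose 4.06-fold (log2 2.02 ± 0.30, adjusted p = 0.000316) and read 254, 193 and 233 on ethanol, 512, 262 and 245 on acetate, 95.0, 26.2 and 96.2 on maltose and 59.1, 69.9 and 84.8 on glucose arrays, highest on acetate array 1. YOL162W, a gene for a member of the allantoate permease family, rose 3.63-fold (log2 1.86 ± 0.25, adjusted p = 0.000134) from a dim signal of 7.5 to 30.5 on sugars. In all, 6 of 26 multidrug and polyamine exporter genes were called higher and 2 lower, with a list median of log2 0.17. Among all genes 8.21% were higher and 6.10% lower. QDR2, encoding a multidrug transporter that also moves potassium, rose 2.02-fold (log2 1.02 ± 0.23, adjusted p = 0.00727). AUS1, a sterol importer gene of anaerobic cells, rose 2.26-fold (log2 1.18 ± 0.27, adjusted p = 0.00779) on its brightest probe set, and its 3 dimmer probe sets were not called. The lower genes were PDR12 and ATR1, the latter an aminotriazole exporter gene (2.06-fold, log2 -1.04 ± 0.21, adjusted p = 0.00321). Of the 6 risers, 0 were called on array 1 of each C2 source alone and 2 genes of the list were called higher with the covariate.

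Genes that take up ammonium, urea and allantoin were higher on C2 compounds. Of 12 genes of ammonium uptake and glutamate synthesis 4 were higher and 0 lower, and of 9 genes of allantoin and urea use 5 were higher and 0 lower, where 8.21% of all genes were higher. The list medians were log2 0.32 and 0.65 against 0.09. GDH3, one of the paralogous NADP-dependent glutamate dehydrogenases and the one known from ethanol-grown cells, read 1317, 1802 and 1718 on ethanol, 1228, 1155 and 994 on acetate, 234, 391 and 299.5 on maltose and 508, 522 and 369 on glucose arrays. The C2 and sugar arrays were far apart, and the gene rose 3.59-fold (log2 1.84 ± 0.15, adjusted p = 6.18e-07). Its paralogue GDH1, the main form on glucose, was at log2 0.32 ± 0.13 and was not called (adjusted p = 0.0923). The high-affinity ammonium permease gene MEP2 read 1381, 934 and 1072 on ethanol, 1153, 661 and 403 on acetate, 255, 175 and 536 on maltose and 365, 663 and 236 on glucose arrays, with acetate array 3 below glucose array 2, and rose 2.6-fold (log2 1.38 ± 0.30, adjusted p = 0.00588). GLT1, encoding glutamate synthase, rose 1.58-fold (log2 0.66 ± 0.13, adjusted p = 0.00372), and MEP1, a lower-affinity ammonium permease gene, rose 1.4-fold (log2 0.48 ± 0.14, adjusted p = 0.0257). MEP1 lost its call without acetate array 2, maltose array 1 or glucose array 3 (adjusted p up to 0.0747).

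The allantoin and urea genes held several risers. DUR3, a permease for urea and polyamines, read 251, 185 and 209 on ethanol, 189.5, 136 and 126 on acetate, 41.9, 63.6 and 151 on maltose and 55.1, 87.7 and 43.0 on glucose arrays, with maltose array 3 inside the C2 range. DAL2, the allantoicase gene, rose 2.47-fold (log2 1.30 ± 0.22, adjusted p = 0.000884) with separate groups, and DAL3, encoding ureidoglycolate lyase, rose 1.72-fold (log2 0.79 ± 0.20, adjusted p = 0.0155). DAL5, an allantoate and dipeptide permease gene, rose 1.89-fold (log2 0.92 ± 0.18, adjusted p = 0.00335) on the brighter of its 2 probe sets and was at log2 -0.13 on the dimmer. On array 1 of each C2 source alone 0 of the 9 allantoin genes and 1 of the 12 ammonium genes were called higher. With the covariate 2 and 2 were. The allantoin median was log2 0.52 and 0.64 in these settings and the ammonium median 0.50 and 0.58, beside 0.15 and 0.26 for all genes.

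Amino acid permeases rose in 7 of 26 cases and fell in 2 (median log2 0.34), against 8.21% of all genes higher and 6.10% lower. AGP3, encoding a low-affinity permease, rose 2.6-fold (log2 1.38 ± 0.34, adjusted p = 0.0111), MUP1, the high-affinity methionine permease gene, rose 2.07-fold (log2 1.05 ± 0.24, adjusted p = 0.00696), and SAM3, the S-adenosylmethionine permease gene, rose 2.32-fold (log2 1.21 ± 0.30, adjusted p = 0.0118) on the brightest of its 4 probe sets. One other probe set of SAM3 was called higher (log2 1.57) and the remaining 2 were not called. TAT1, a permease for branched-chain and aromatic amino acids, was at the floor on all 6 sugar arrays and read 18.1 to 30.2 on C2 arrays, at least 1.97-fold higher. It passed the signal limit through the C2 arrays alone, so its rise follows from that limit, and without TAT1 the called risers among permeases were 6. BAP2, the permease gene for branched-chain amino acids, went the other way. It read 106, 72.5 and 69.2 on ethanol, 76.6, 58.4 and 77.8 on acetate, 313, 446 and 429 on maltose and 419, 265 and 326 on glucose arrays and fell 4.77-fold (log2 -2.25 ± 0.18, adjusted p = 4.14e-07). Every sugar array exceeded every C2 array, and BAP2 was called in each pair, on array 1 of each C2 source alone (log2 -2.00) and with the covariate (log2 -1.97). Leaving out maltose array 2, the dim array, gave 7 permease genes higher and 2 lower with a median of log2 0.19, beside 0.00 for all genes.

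**Figure D3:**
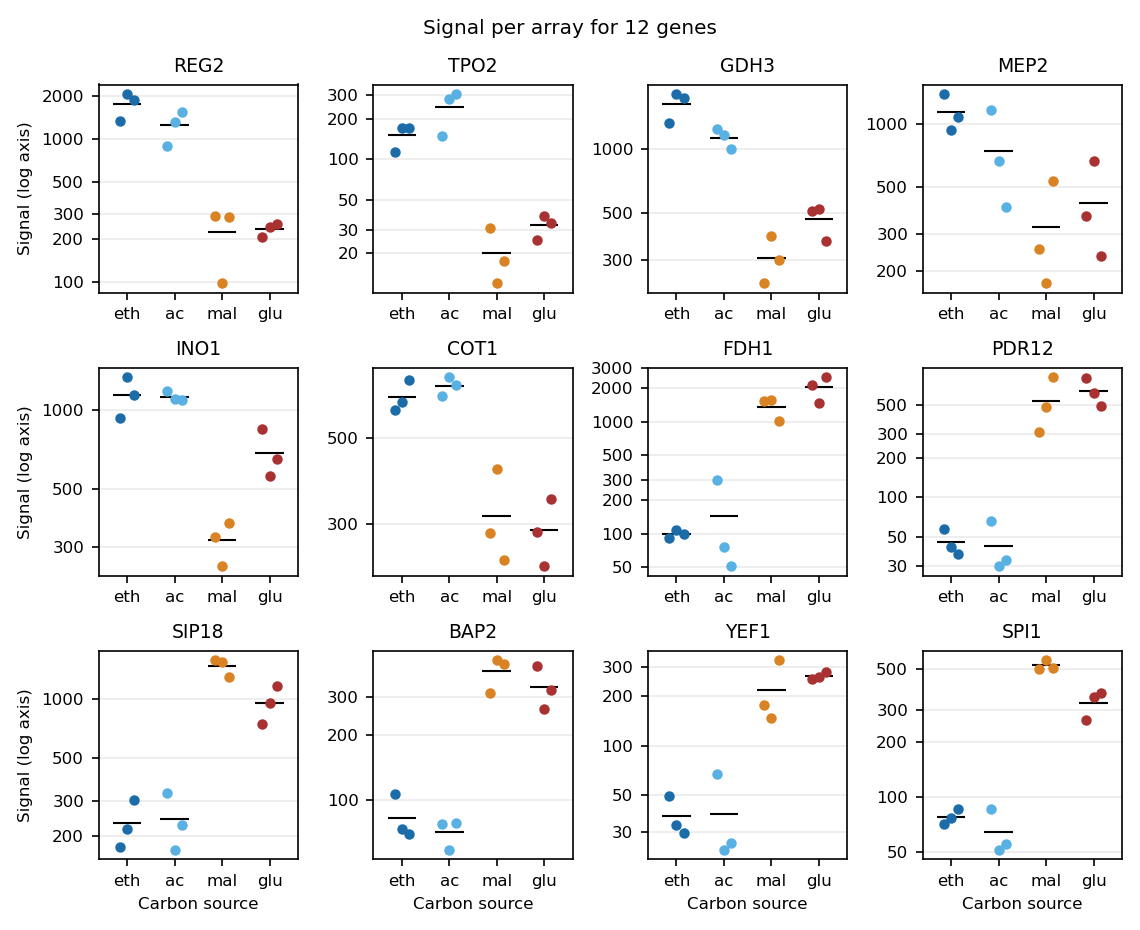
Each panel shows 1 gene, with a point per array, a line at the mean of 3 arrays and a logarithmic signal axis that differs between panels. In 11 of the 12 panels the ethanol and acetate points lie apart from the maltose and glucose points, and in the panel of MEP2 they overlap.

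The lists of amino acid synthesis showed no shift in a common direction, though single enzymes moved. GCV2 and GCV1, subunits of the mitochondrial glycine decarboxylase that feeds folate with carbon from glycine, rose 2.24-fold (log2 1.16 ± 0.13, adjusted p = 2.61e-05) and 1.6-fold (log2 0.68 ± 0.13, adjusted p = 0.00272), both with separate groups and both also called in the settings that address RNA quality. AGX1, encoding the alanine:glyoxylate aminotransferase that makes glycine from glyoxylate, was already bright and rose 1.84-fold (log2 0.88 ± 0.15, adjusted p = 0.000989), from 1947 to 2519 to 3097 to 4544. AAT2, the cytosolic aspartate aminotransferase gene, rose 1.59-fold (log2 0.67 ± 0.14, adjusted p = 0.00399), and BAT2, the cytosolic branched-chain aminotransferase gene, rose 1.82-fold (log2 0.86 ± 0.16, adjusted p = 0.00258). Glycine, serine, threonine and aspartate synthesis had 2 of 17 genes higher and 1 lower. Branched-chain synthesis had 2 of 12 higher and 1 lower, lysine synthesis 2 of 9 and 2, amino acid breakdown 3 of 16 and 2. In either direction 17.6%, 25.0%, 44.4% and 31.25% of these lists were called, against 14.3% of all genes (8.21% higher and 6.10% lower). The aromatic and histidine list had 15.0% called, arginine and proline 15.4% and methionine and sulphur assimilation 4.0%. Aromatic and histidine synthesis had 0 of 20 higher and 3 lower, among them ARO4, a gene for the first enzyme of the shikimate pathway (1.68-fold, log2 -0.75 ± 0.14, adjusted p = 0.00215). Arginine and proline synthesis had 0 of 13 higher and 2 lower, with no member of 1 sign among those called. Methionine and sulphur assimilation had 1 of 25 higher, MET8, an enzyme of sirohaem synthesis (2.51-fold, log2 1.33 ± 0.29, adjusted p = 0.00563). Purine and pyrimidine synthesis had 0 of 23 called by limma (2 higher and 1 lower at an unadjusted p under 0.05). Leaving out 1 array moved some of these counts by over 1.5 times, with moves of a single gene not listed. Lower aromatic and histidine genes were 1 without ethanol array 2 or 3, acetate array 2 or 3, maltose array 2 or glucose array 2, 5 without acetate array 1 and 6 without maltose array 1. Lower arginine and proline genes were 0 without ethanol array 2 or 3, acetate array 3 or glucose array 2 or 3, and 4 without maltose array 3. Of the methionine list 5 were lower without ethanol array 1 and 3 without acetate array 1, and of amino acid breakdown 4 were lower without maltose array 2.

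Among genes of metals, vitamins and cofactors a few rose, where 8.21% of all genes were higher. The thiamine, pyridoxine and biotin list had 2 of 20 genes higher (10.0%). The haem and iron-sulphur cluster list had 1 of 20 (5.0%). COT1, a vacuolar transporter gene for zinc and cobalt, read 589, 619 and 706 on ethanol, 640.0, 718 and 687 on acetate, 283, 415 and 241 on maltose and 286, 232 and 347 on glucose arrays and rose 2.23-fold (log2 1.16 ± 0.15, adjusted p = 9.88e-05), with every C2 array above every sugar array. The copper transporter genes CTR3 and CTR1 rose 1.8-fold (log2 0.85 ± 0.16, adjusted p = 0.00272) and 1.69-fold (log2 0.76 ± 0.16, adjusted p = 0.00468), and 4 of 15 zinc and copper genes were higher and 0 lower (median log2 0.40). FTH1, a vacuolar iron transporter gene, rose 1.54-fold (log2 0.62 ± 0.12, adjusted p = 0.00311) and HMX1, the haem oxygenase gene, rose 1.56-fold (log2 0.64 ± 0.14, adjusted p = 0.00664), among 3 of 19 genes of reductive iron uptake that were higher (5 without maltose array 3). BIO2, encoding biotin synthase, rose 1.85-fold (log2 0.88 ± 0.14, adjusted p = 0.000507) with separate groups, and ISA1, a gene of iron-sulphur cluster assembly on which biotin synthase depends, rose 1.42-fold (log2 0.51 ± 0.13, adjusted p = 0.0158). With the covariate COT1, CTR3, CTR1, BIO2 and ISA1 were called, and on array 1 of each C2 source alone they were not, at log2 changes of 1.06, 0.97, 0.85, 0.94 and 0.73. The list of NAD synthesis and kinases had 1 of 16 genes higher and 2 lower (median log2 -0.15), where 6.10% of all genes were lower. PNC1 was lower, and so was YEF1, one of the NAD kinase genes. It read 49.8, 32.9 and 29.4 on ethanol, 67.1, 23.4 and 25.7 on acetate, 178, 148 and 330.1 on maltose and 256, 262 and 281 on glucose arrays, fell 6.62-fold (log2 -2.73 ± 0.28, adjusted p = 8.79e-06), and had no array in common between the groups, while its paralogue UTR1 and the mitochondrial NADH kinase gene POS5 were at log2 -0.18 ± 0.22 and -0.30 ± 0.19 and were not called. PDH1, a mitochondrial gene related to methylcitrate dehydratase, and CAB2, a gene of coenzyme A synthesis, belong to no list and were picked after their values were seen. They rose 2.45-fold (log2 1.29 ± 0.17, adjusted p = 9.88e-05) and 2.24-fold (log2 1.16 ± 0.18, adjusted p = 0.000396).

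Lipid genes moved in both directions. Of 19 inositol and phospholipid genes 2 were higher and 1 lower, so that 15.8% were called, near the 14.3% of all genes. The median of that list was log2 0.25, and -0.08 against glucose alone. INO1, which encodes the inositol phosphate synthase that makes inositol, read 932, 1326 and 1132 on ethanol, 1176, 1094 and 1088 on acetate, 329, 254 and 372 on maltose and 847, 559.6 and 646 on glucose arrays. C2 arrays were above all sugar arrays and glucose arrays above maltose arrays, and the gene rose 2.43-fold (log2 1.28 ± 0.14, adjusted p = 2.08e-05). CHO2, a phosphatidylethanolamine methyltransferase gene, rose 1.77-fold (log2 0.83 ± 0.20, adjusted p = 0.0111), and PIS1, the phosphatidylinositol synthase gene, fell 1.47-fold (log2 -0.56 ± 0.15, adjusted p = 0.0189), a call that ended without ethanol array 2, acetate array 3 or glucose array 1 (adjusted p up to 0.0557). Sterol synthesis was lower: of 28 mevalonate and sterol genes 0 were higher and 9 lower, and 16 had a negative sign in all 4 pairs (median log2 -0.35 against 0.09 for all genes, with 6.10% of all genes lower). ERG1, the squalene epoxidase gene, read 675, 555 and 459 on ethanol, 599, 460.1 and 506 on acetate, 969.5, 1578 and 1084 on maltose and 783, 892 and 1089 on glucose arrays and fell 1.94-fold (log2 -0.95 ± 0.15, adjusted p = 0.000681), with separate groups. ERG5, which encodes a sterol desaturase, and ERG9, the squalene synthase gene, fell 1.75-fold (log2 -0.80 ± 0.14, adjusted p = 0.0013) and 1.72-fold (log2 -0.79 ± 0.17, adjusted p = 0.00535), with groups that overlapped. CYB5, a cytochrome gene that feeds electrons to sterol and lipid desaturation, fell 1.69-fold (log2 -0.75 ± 0.18, adjusted p = 0.00916). Of the sterol list 0 members were called on array 1 of each C2 source alone and 1 was with the covariate, where calls fell across all genes too, and its median was log2 -0.21 and -0.23, beside 0.15 and 0.26 for all genes. Without acetate array 2 or 3 alone, 5 sterol genes were lower. The part of RNA quality in these calls was not tested. Fatty acid synthesis and sphingolipid synthesis had 1 of 18 and 1 of 21 genes lower (the latter 3 without maltose array 2) and 0 higher, and beta-oxidation 0 of 14 called (1 higher at an unadjusted p under 0.05), with CTA1, the peroxisomal catalase gene, at log2 0.36 ± 0.13 (adjusted p = 0.0602). Peroxisome biogenesis had 3 of 26 genes higher (11.5%, against 8.21% of all genes). PEX21, encoding an import co-receptor, led them (1.87-fold, log2 0.90 ± 0.15, adjusted p = 0.000742) and was also called in both settings that address RNA quality. Leaving out ethanol array 2 or 3, acetate array 2 or 3 or glucose array 1 left 1 gene of that list called higher, and leaving out maltose array 3 gave 6.

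Some mitochondrial genes outside the citric acid cycle rose and a few fell. NDE2, an external NADH dehydrogenase gene, read 912, 1318 and 1171 on ethanol, 942, 923 and 1067 on acetate, 294, 344 and 286 on maltose and 213, 317 and 392 on glucose arrays and rose 3.46-fold (log2 1.79 ± 0.15, adjusted p = 1.05e-06), while its paralogue NDE1 was at log2 0.35 ± 0.13 and was not called (adjusted p = 0.0661). The cytochrome c genes parted: CYC7, the minor form, was at the floor on all acetate arrays, read 53.5 to 124 on sugar arrays and fell at least 6.03-fold, and CYC1, the major form, was at log2 0.26 ± 0.12 (adjusted p = 0.136). Of 38 respiratory chain and ATP synthase genes 9 were higher and 2 lower (median log2 0.23), against 8.21% of all genes higher and 6.10% lower. COX9, a cytochrome oxidase subunit gene, was among the higher ones (1.62-fold, log2 0.69 ± 0.12, adjusted p = 0.000948). Of that list 3 to 5 genes were higher without ethanol array 2 or 3, acetate array 2 or 3 or glucose array 2 or 3, and 1 on array 1 of each C2 source alone or with the covariate. COX1, encoding the largest cytochrome oxidase subunit and carried on the mitochondrial genome, read 32.6, 49.6 and 100.0 on ethanol, 143, 89.6 and 91.7 on acetate, 21.5, 21.9 and 28.5 on maltose and 15.6, 23.4 and 13 on glucose arrays. Ethanol array 1 was near the sugar range and acetate array 1 the highest, and COX1 rose 3.79-fold (log2 1.92 ± 0.28, adjusted p = 0.000334). OLI1, the other mitochondrial gene among those tested, rose 1.86-fold (log2 0.90 ± 0.17, adjusted p = 0.0026) and was picked after its value was seen. On array 1 of each C2 source alone COX1 was called (log2 1.77) and OLI1 was not. With the covariate neither was called, with COX1 at log2 1.60. Among carriers 3 of 18 genes were higher (16.7%, against 8.21% of all genes) and 0 lower. LEU5, a carrier linked to coenzyme A, led them (1.67-fold, log2 0.74 ± 0.24, adjusted p = 0.0439). Without any 1 of the ethanol, acetate or glucose arrays, or without maltose array 1, LEU5 lost its call (adjusted p up to 0.118). The carrier list had 1 gene higher without any 1 of 8 arrays other than ethanol array 1, maltose arrays 2 and 3 and glucose array 2, and 5 without maltose array 2. UTH1, a mitochondrial and cell wall protein gene of the SUN family, was picked after its value was seen and rose 1.72-fold (log2 0.78 ± 0.12, adjusted p = 0.000663).

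FDH1, a formate gene, and PDR12, a gene of weak acid defence, fell most among the genes outside carbon metabolism named here. FDH1, formate dehydrogenase, read 91.3, 108 and 100.1 on ethanol, 303, 75.2 and 50.9 on acetate, 1523, 1559 and 1022 on maltose and 2129, 1457 and 2502 on glucose arrays on the brighter of its 2 probe sets. Acetate array 1 was the highest of the C2 arrays and still far below the lowest sugar array. The gene fell 16.0-fold (log2 -4.00 ± 0.32, adjusted p = 4.14e-07) there and 30.4-fold on the other probe set. PDR12, an ATP-driven exporter of weak organic acid anions, read 57.4, 41.8 and 37.2 on ethanol, 65.8, 29.9 and 33.3 on acetate, 314, 479.7 and 814 on maltose and 802, 620.4 and 492 on glucose arrays and fell 13.1-fold (log2 -3.72 ± 0.25, adjusted p = 7.87e-08). SPI1, a cell wall protein gene of weak acid resistance, read 71.8, 77.0 and 86.5 on ethanol, 85.8, 51.8 and 55.3 on acetate, 502, 556 and 507 on maltose and 264, 349 and 368 on glucose arrays and fell 5.87-fold (log2 -2.55 ± 0.16, adjusted p = 4.27e-08). For these 3 genes every C2 array was below every sugar array, and all 3 were called in each pair, on array 1 of each C2 source alone (log2 -3.29, -3.18 and -2.39) and with the covariate. HSP30, a plasma membrane protein gene of acid and heat stress, fell 3.39-fold (log2 -1.76 ± 0.38, adjusted p = 0.0052) with overlap, since acetate array 1 read 525 and glucose array 1 read 122. In the weak acid list as a whole 4 of 10 genes were lower and 1, TPO2, was higher, against 6.10% of all genes lower and 8.21% higher. PDR12 and TPO2 are also in the exporter list and HSP30 in that of heat shock genes. Acetate is itself a weak acid, and on acetate alone PDR12 read 65.8, 29.9 and 33.3, at log2 0.15 ± 0.36 for ethanol minus acetate (adjusted p = 1.0). Of the 5 tested genes for formate and aryl alcohol dehydrogenases 2 were called higher, AAD4 on the brighter of its probe sets (2.19-fold, log2 1.13 ± 0.15, adjusted p = 0.000118) and AAD14 (1.65-fold, log2 0.72 ± 0.13, adjusted p = 0.00219).

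General stress genes were lower on C2 compounds, with the largest share of lower calls among the 54 lists. Of 23 genes 13 were lower and 0 higher, with a median of log2 -0.80 (0.09 for all genes, of which 6.10% were lower). The list shares SPI1 and YGP1 with the weak acid list, SSA4 with the heat shock list and PNC1 with the NAD list. SIP18, a hydrophilin of desiccation tolerance, read 174, 216 and 305 on ethanol, 331, 169.8 and 226 on acetate, 1583, 1550 and 1294 on maltose and 743, 956 and 1165 on glucose arrays and fell 5.12-fold (log2 -2.36 ± 0.18, adjusted p = 3.47e-07), with no overlap. GRE1, a related hydrophilin gene, read 319, 375 and 203 on ethanol, 482, 141 and 216 on acetate, 2773, 3321 and 2003 on maltose and 307, 1779 and 1996 on glucose arrays and fell 6.19-fold (log2 -2.63 ± 0.39, adjusted p = 0.00038). Its glucose array 1 lay inside the C2 range, and without that array the change was log2 -3.07 (adjusted p = 2.21e-06). RTN2, a reticulon gene of the endoplasmic reticulum, MSC1, a gene of unclear function induced by stress, and YGP1, a cell wall glycoprotein gene of nutrient limitation, fell 3.32-fold (log2 -1.73 ± 0.25, adjusted p = 0.000303), 2.51-fold (log2 -1.33 ± 0.19, adjusted p = 0.000303) and 2.35-fold (log2 -1.23 ± 0.17, adjusted p = 0.000142). Without ethanol array 1 the list had 2 genes higher, and without glucose array 1 it had 14 genes lower and a median of log2 -0.98. Keeping array 1 of each C2 source, 5 were lower (0.582% of all genes) at a median of log2 -0.91, and with the covariate 7 were (1.07%) at -0.95.

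Chaperones and antioxidant enzymes followed in part. Of 23 heat shock genes 10 were lower and 1 higher (median log2 -0.35). The shares of all genes were 6.10% lower and 8.21% higher, with a median of log2 0.09. SSA3 and SSA4, inducible cytosolic Hsp70 genes, fell 3.29-fold (log2 -1.72 ± 0.38, adjusted p = 0.00683) and 2.2-fold (log2 -1.13 ± 0.17, adjusted p = 0.000448), and SSE2, the inducible partner of the nucleotide exchange factor Sse1, fell 2.02-fold (log2 -1.02 ± 0.16, adjusted p = 0.000697). SSA3 read 129.8 on glucose array 1 and 466 to 1305 on the other sugar arrays, and without glucose array 1 its change was log2 -2.13 (adjusted p = 0.000108). SSA1, a constitutive Hsp70 gene, was the one called higher (log2 3.20 ± 1.00, adjusted p = 0.0391), with values of 0.0 and 98.1 on glucose arrays 1 and 3. That call ended without any 1 of 9 arrays, all but ethanol array 1, acetate array 1 and glucose array 2 (adjusted p up to 0.0904). HSP26, HSP78 and HSP104, well-known disaggregation and small heat shock genes, fell 1.83-fold (log2 -0.87 ± 0.17, adjusted p = 0.00314), 1.73-fold (log2 -0.79 ± 0.12, adjusted p = 0.000402) and 1.79-fold (log2 -0.84 ± 0.15, adjusted p = 0.00184), while HSP12, another small heat shock gene, was at log2 -0.45 ± 0.20 (adjusted p = 0.126). These 4 were picked after their values were seen. Of 30 antioxidant genes 8 were lower and 1 higher (median log2 -0.17). OYE3, an old yellow enzyme gene, read 82.1, 96.6 and 72.6 on ethanol, 58.3, 61.3 and 70.6 on acetate, 200.1, 259.5 and 296 on maltose and 170.4, 240.4 and 185 on glucose arrays and fell 3.05-fold (log2 -1.61 ± 0.17, adjusted p = 1.24e-05). TSA2 and AHP1, peroxiredoxin genes, fell 3.01-fold (log2 -1.59 ± 0.31, adjusted p = 0.0031) and 1.95-fold (log2 -0.96 ± 0.18, adjusted p = 0.00229), and the cytosolic catalase gene CTT1, also picked after its value was seen, was at log2 -0.80 ± 0.30 (adjusted p = 0.0809). On array 1 of each C2 source alone 3 heat shock and 1 antioxidant gene were lower, and with the covariate 3 and 4. In these settings 0.582% and 1.07% of all genes were lower.

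Trehalose and glycogen genes were lower in smaller number, and glycerol and osmolyte genes moved both ways. Of 13 glycerol and osmolyte genes 2 were higher and 3 lower, where 8.21% of all genes were higher and 6.10% lower. The largest change of that list was the rise of STL1 (log2 2.02). Of 20 trehalose and glycogen genes 4 were lower and 0 higher, with the largest fall in GAC1, described above. GPH1, glycogen phosphorylase, fell 2.55-fold (log2 -1.35 ± 0.24, adjusted p = 0.00184), and GSY2, the main glycogen synthase gene, fell 2.1-fold (log2 -1.07 ± 0.17, adjusted p = 0.000583), both also on array 1 of each C2 source alone. TPS2, trehalose phosphate phosphatase, fell 1.61-fold (log2 -0.68 ± 0.14, adjusted p = 0.00346). In glycerol metabolism GPD2, the glycerol phosphate dehydrogenase gene of redox balance, fell 2.25-fold (log2 -1.17 ± 0.25, adjusted p = 0.00518) and GCY1, a glycerol dehydrogenase gene, fell 2.24-fold (log2 -1.16 ± 0.14, adjusted p = 5.34e-05), while GPP1, a glycerol phosphatase gene, rose 1.46-fold (log2 0.54 ± 0.15, adjusted p = 0.0194), as STL1 did. BDH1, butanediol dehydrogenase, and ISF1, a gene linked to respiratory growth, were picked after their values were seen. They fell 3.1-fold (log2 -1.63 ± 0.13, adjusted p = 3.47e-07) and 3.09-fold (log2 -1.63 ± 0.14, adjusted p = 7.18e-07) with separate groups.

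**Figure D4:**
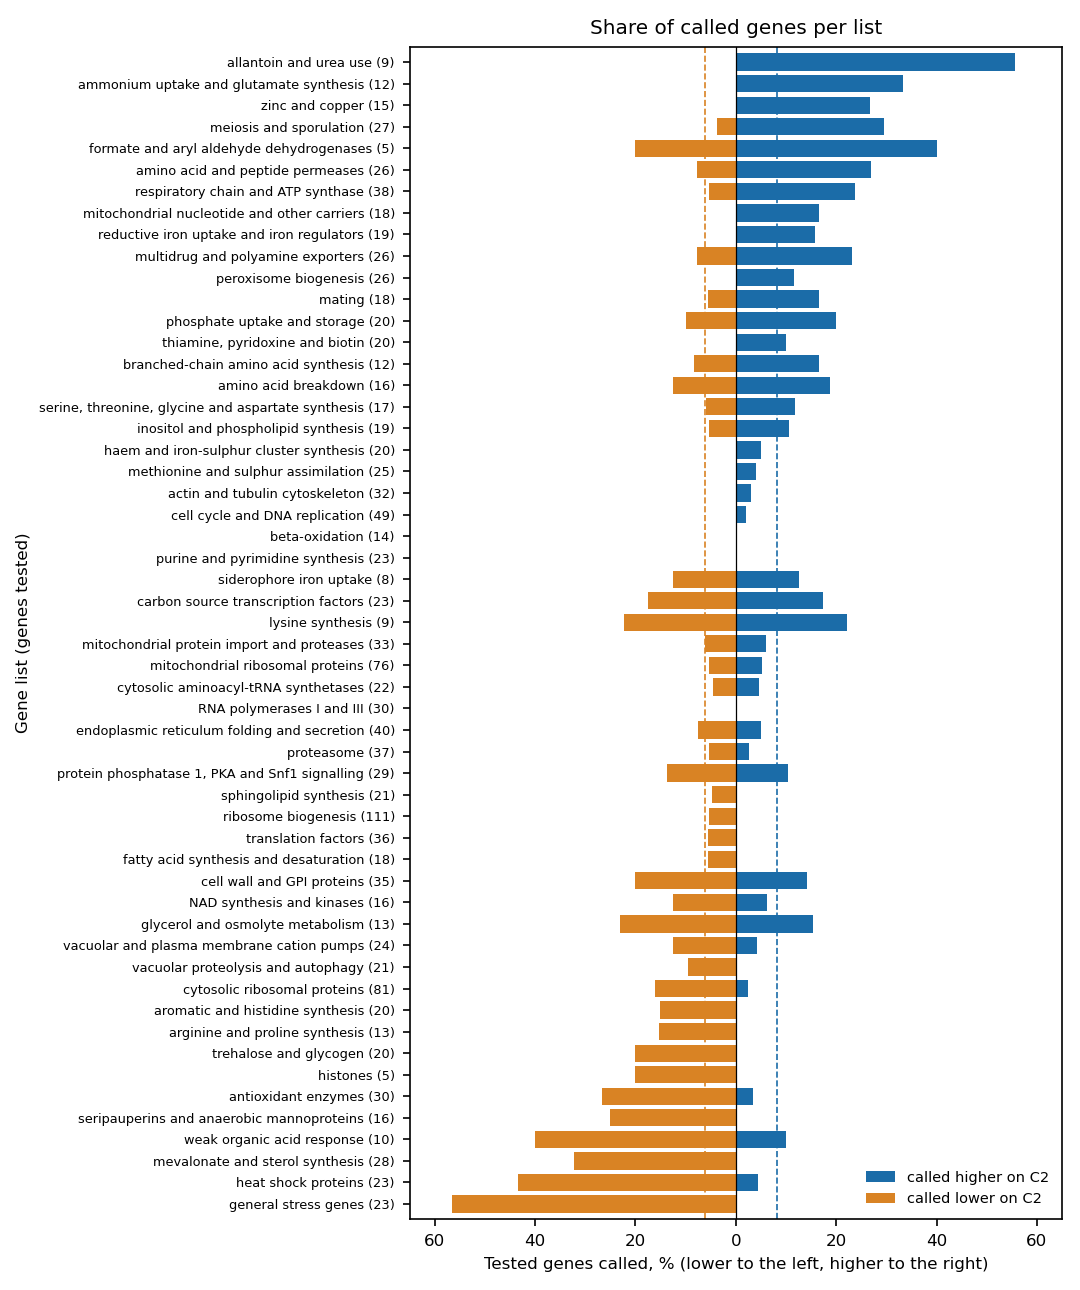
Bars give, for 54 gene lists outside central carbon metabolism, the percentage of tested genes called higher on C2 compounds to the right and lower to the left, with the number tested in parentheses. Dashed lines mark the shares among all genes, 8.21% higher and 6.10% lower. The nitrogen, metal and permease lists lie at the top and the stress, sterol and acid lists at the bottom.

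At the cell surface the changes were mixed. PIR3, a cell wall protein attached by an alkali-sensitive bond, read 26.6, 28.5 and 40.5 on ethanol, 60.1, 26.1 and 28.1 on acetate, 233, 184 and 251 on maltose and 113, 246 and 149.6 on glucose arrays and fell 5.66-fold (log2 -2.50 ± 0.26, adjusted p = 1.03e-05). Its relatives HSP150 and CIS3 fell 1.62-fold (log2 -0.69 ± 0.17, adjusted p = 0.0126) and 1.54-fold (log2 -0.63 ± 0.15, adjusted p = 0.0122), and PIR1 was at log2 -0.21 ± 0.14 and was not called. CWP1, a mannoprotein gene, rose 2.28-fold (log2 1.19 ± 0.18, adjusted p = 0.000396) with separate groups. CCW12, encoding another mannoprotein, was called higher too (2.29-fold, log2 1.20 ± 0.30, adjusted p = 0.0129), but it is among the bright genes, and glucose arrays 1 and 3 read 1589 and 1892 for CCW12 against 6060 on glucose array 2. The counts of this paragraph stand beside shares of 8.21% higher and 6.10% lower among all genes. In all, 5 of 35 cell wall genes were higher and 7 lower, with SPR1, a glucanase gene, above the signal limit on C2 arrays alone. With glucose arrays 1 and 3 left out, so that glucose had 1 array, 1 was higher and 2 were lower. With 1 array left out, 3 were higher without ethanol array 2 or 3, acetate array 2, maltose array 1 or glucose array 1 or 3, and 4 were lower without ethanol array 3 or acetate array 2. The seripauperin list, near-identical genes prone to cross-hybridisation, had 4 of 16 lower and 0 higher. PAU7 read 37.4, 33.5 and 40.6 on ethanol, 47.8, 33.9 and 38.6 on acetate, 130.1, 102 and 169 on maltose and 50.0, 494 and 245 on glucose arrays and fell 4.03-fold (log2 -2.01 ± 0.40, adjusted p = 0.0034). Glucose array 1 gave the lowest sugar value for PAU7, and without that array 9 of the 16 were lower and the list median went from log2 -0.56 to -0.83. Without any other single array 1 or 2 were lower. Phosphate genes had 4 of 20 higher and 2 lower. PHO84, the high-affinity phosphate permease gene, read 11.3, 11.9 and 13.7 on ethanol, 14.2, 9.1 and 22.0 on acetate, 76.9, 61.8 and 58.5 on maltose and 924, 35.4 and 37.9 on glucose arrays and fell 6.0-fold (log2 -2.58 ± 0.59, adjusted p = 0.00786). PHO89, a sodium-coupled phosphate permease gene, rose 2.52-fold (log2 1.34 ± 0.34, adjusted p = 0.014) with overlap. For PHO84 the value on glucose array 1 was far above all others, and without it the change was log2 -1.81 (adjusted p = 6.96e-05). VTC4, a vacuolar polyphosphate synthase gene, rose on the brighter of its 2 probe sets (log2 0.86 ± 0.19) and was at log2 -0.60 on the other.

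Sporulation genes were partly higher in this haploid strain. Of 46 meiosis and sporulation genes on the list 27 passed the signal limit, and 8 of these were higher and 1 lower (median log2 0.22). Among all genes 8.21% were higher and 6.10% lower. DON1, SSP1 and ADY3, which act in the formation of the prospore membrane, rose 2.79-fold (log2 1.48 ± 0.23, adjusted p = 0.000467), 2.58-fold (log2 1.37 ± 0.26, adjusted p = 0.00237) and 2.18-fold (log2 1.12 ± 0.25, adjusted p = 0.00668), all with separate groups and all dim. DON1 read 57.5, 63.1 and 57.1 on ethanol, 37.9, 51.8 and 64.7 on acetate, 15.0, 15.3 and 26.2 on maltose and 25.3, 17.7 and 20.9 on glucose arrays, and it was called in each of the 4 pairs. SPS100, a spore wall maturation gene, fell 4.69-fold (log2 -2.23 ± 0.43, adjusted p = 0.00285). It read 44.1 on glucose array 1 and 305 to 583 on the other sugar arrays, and without glucose array 1 its change was log2 -2.79 (adjusted p = 1.86e-07). Mating genes had 3 of 18 higher and 1 lower, against 8.21% of all genes higher and 6.10% lower. SAG1, the alpha-agglutinin gene, was up 1.82-fold (log2 0.86 ± 0.20, adjusted p = 0.00916). The higher mating genes were 1 without array 3 of ethanol, acetate or glucose and 6 without array 3 of maltose. Keeping array 1 of each C2 source, 2 sporulation genes were called higher, and with the covariate 0.

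Several other lists had few called genes in number, though not all had a low share. The shares of siderophore uptake, cation pumps and histones were above the 14.3% of all genes called in either direction. The shares of the other lists in this paragraph were below it. Siderophore uptake had 1 of 8 genes higher and 1 lower, neither with 1 sign in all 4 pairs, and haem and iron-sulphur cluster synthesis had 1 of 20 higher. Thiamine, pyridoxine and biotin had 2 of 20 higher, vacuolar and plasma membrane cation pumps 1 of 24 higher and 3 lower, vacuolar proteolysis and autophagy 2 of 21 lower, and histones 1 of 5 lower. Mitochondrial protein import had 2 of 33 higher and 2 lower, endoplasmic reticulum folding and secretion 2 of 40 and 3, and the actin and tubulin cytoskeleton 1 of 32 and 0. Protein import had 0 higher without ethanol array 2 or 3, acetate array 2, maltose array 1 or glucose array 3, 5 higher without maltose array 3, and 0 lower without ethanol array 2 or 3, acetate array 2 or 3 or glucose array 1. Endoplasmic reticulum folding had 0 higher without ethanol array 3 or acetate array 2 or 3 and 5 without maltose array 3. Without maltose array 2 the haem list and the cation pumps had 3 higher each, without maltose array 3 the vitamin list had 5, and the cytoskeleton had 3 higher without maltose array 1 and 2 lower without acetate array 1 or maltose array 2. KAR2, the Hsp70 of the endoplasmic reticulum, fell 1.56-fold (log2 -0.64 ± 0.13, adjusted p = 0.00385) with separate groups. VMA2 and VMA13, subunits of the vacuolar proton pump, fell 1.63-fold (log2 -0.70 ± 0.17, adjusted p = 0.0103) and 1.51-fold (log2 -0.59 ± 0.13, adjusted p = 0.00694).

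The machinery of growth, in cultures held at 1 growth rate, had few calls apart from cytosolic ribosomal proteins. Ribosome biogenesis had 0 of 111 genes higher and 6 lower, RNA polymerases I and III 0 of 30 called by limma (1 higher and 3 lower at an unadjusted p under 0.05), translation factors 0 of 36 higher and 2 lower, aminoacyl-tRNA synthetases 1 of 22 and 1, the proteasome 1 of 37 and 2, mitochondrial ribosomal proteins 4 of 76 and 4, and cell cycle and DNA replication 1 of 49 and 0. Cytosolic ribosomal proteins had 2 of 81 higher and 13 lower (6.10% of all genes were lower). The largest fall of this list was that of RPL7B, 7.43-fold on its brighter probe set (log2 -2.89 ± 0.50, adjusted p = 0.00128). On its dimmer probe set RPL7B was at log2 -0.76 and was not called (adjusted p = 0.123). RPS14B and RPL13B fell 1.75-fold (log2 -0.81 ± 0.13, adjusted p = 0.000564) and 1.68-fold (log2 -0.75 ± 0.15, adjusted p = 0.00305). The count of lower ribosomal protein genes was 22 without maltose array 3 and 4 or 5 without any other array except ethanol array 1, acetate array 1 and glucose array 2. Higher ribosomal protein genes were 0 without ethanol array 3, acetate array 2 or 3 or glucose array 1 or 3, and 4 without glucose array 2. Lower genes of ribosome biogenesis were 0 to 3 without any 1 array except ethanol array 1, acetate array 1 and maltose array 2, and 2 were higher without maltose array 3. Mitochondrial ribosomal proteins had 1 or 2 higher without ethanol array 2, acetate array 2 or 3 or any 1 glucose array and 7 without maltose array 3, with 1 or 2 lower without ethanol array 3, acetate array 2 or 3 or glucose array 1 or 2. Of RNA polymerases 2 were lower without ethanol array 1, of the proteasome 0 without acetate array 3 and 4 without maltose array 2, and of the cell cycle 5 were higher and 2 lower without maltose array 3. Many ribosomal protein genes have near-identical copies that these probe sets may not tell apart. RPP1B, called higher, was so on 1 of its 2 probe sets (log2 0.86 ± 0.24, against 0.03 on the other) and read 1251 and 1269 on glucose arrays 1 and 3 against 3522 on glucose array 2. Its call ended without ethanol array 3, acetate array 2 or 3 or glucose array 1 or 3 (adjusted p up to 0.0697). These list medians differed between the settings of RNA quality. The median of ribosome biogenesis was log2 -0.12 on all arrays, 0.16 on array 1 of each C2 source alone and 0.41 with the covariate, and its member KRR1 went from log2 -0.86 ± 0.28 to -0.34 and 0.020. Over all genes the median went from log2 0.09 to 0.15 and 0.26. RNA polymerases I and III went from log2 0.00 to 0.19 and 0.42, and cytosolic ribosomal proteins from -0.05 to -0.17 and -0.22. Array 1 of ethanol and of acetate gave 0 calls in all 3 of these lists.

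**Figure D5:**
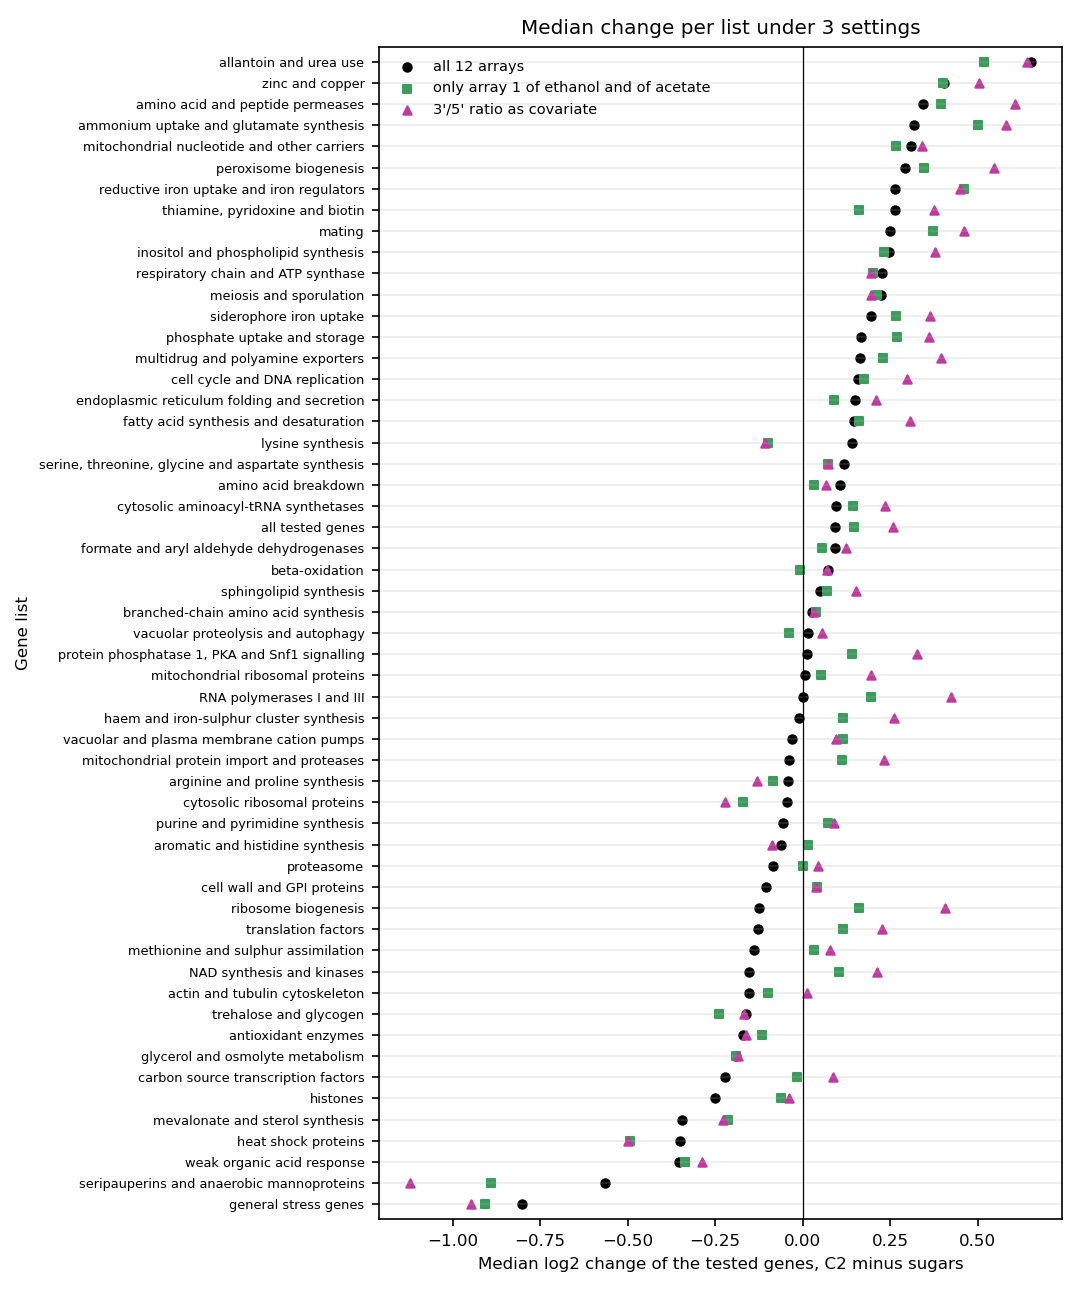
For 54 gene lists and for all tested genes, symbols give the median log2 change on all 12 arrays (circles), on array 1 of each C2 source alone (squares) and under the 3'/5' covariate (triangles). The nitrogen and metal lists stay above 0 and the general stress and seripauperin lists below it in all 3 settings. Ribosome biogenesis runs from -0.12 to 0.41, and all tested genes from 0.09 to 0.26.

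Genes of little or unknown function were among the clearest responders. YDR222W read 224, 162 and 166 on ethanol, 255, 176 and 212 on acetate, 37.5, 22.8 and 39.2 on maltose and 43.1, 75.4 and 58.2 on glucose arrays and rose 4.56-fold (log2 2.19 ± 0.22, adjusted p = 5.75e-06), and YAR068W read 1372, 1798 and 1570 on ethanol, 1390, 1322 and 1944 on acetate, 612, 522 and 215 on maltose and 340.3, 369 and 357 on glucose arrays and rose 4.06-fold (log2 2.02 ± 0.21, adjusted p = 9.16e-06). ECM13, also without a settled role, rose 2.85-fold (log2 1.51 ± 0.15, adjusted p = 4.27e-06), from 469.9 to 818 to 1380 to 1760. TRM13, a tRNA methyltransferase gene, rose 3.69-fold (log2 1.88 ± 0.23, adjusted p = 6.63e-05), and the small nucleolar RNA SNR68 and the short open reading frame YNL146C-A rose 3.16-fold (log2 1.66 ± 0.32, adjusted p = 0.00256) and 3.4-fold (log2 1.76 ± 0.35, adjusted p = 0.00328). For the last 2, maltose array 2 was at the floor and no call remained on array 1 of each C2 source alone or with the covariate.

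Among the fallers, YJR115W and YPR145C-A have no assigned function. YJR115W read 5.9, 71.1 and 40.2 on ethanol, 42.3, 25.2 and 42.1 on acetate, 533, 511 and 327 on maltose and 132, 289 and 292 on glucose arrays and fell 9.3-fold (log2 -3.22 ± 0.36, adjusted p = 1.94e-05), and YPR145C-A read 24.3, 17.5 and 23.4 on ethanol, 18.2, 13 and 24.1 on acetate, 197, 129 and 179.8 on maltose and 33.6, 174 and 193 on glucose arrays and fell 6.71-fold (log2 -2.75 ± 0.37, adjusted p = 0.000135). In both genes glucose array 1 was the lowest sugar array and still above the C2 arrays. ROQ1, a small regulator of a ubiquitin ligase in stressed cells, fell 3.57-fold (log2 -1.83 ± 0.19, adjusted p = 9.99e-06), and PRR2, a protein kinase gene linked to the pheromone response, fell 4.17-fold (log2 -2.06 ± 0.26, adjusted p = 7.84e-05). YDR222W, ECM13, TRM13, YJR115W and PRR2 were called on array 1 of each C2 source alone. YAR068W, YPR145C-A and ROQ1 were not.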

How the data were processed

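The 12 arrays fall into 4 groups of 3 by the carbon source in their titles. The authors deposited linear signal intensities per probe set, scaled so that all arrays share a 2% trimmed mean. MAS5 made those of the maltose, ethanol and acetate arrays, per the labels, while for the glucose arrays the sources used here name no software. The 2% trimmed mean was set equal on all arrays again, signals under 12 were raised to 12, and log2 was taken. For each probe set limma (version 3.58.1, R version 4.3.3) fitted one mean per source, with moderated variances that follow an intensity trend, and the mean of ethanol and acetate was set against the mean of maltose and glucose. A call is a Benjamini-Hochberg adjusted p under 0.05 over all 7176 probe sets. Log2 changes are on the floored scale, with SE, and understate changes of dim genes. By the platform annotation, updated through the reference table of genes, 6504 probe sets had 1 gene, 328 several and 2443 none. The brightest probe set stood for a gene.

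Members and gene lists were chosen with earlier results of these data known. The text names the 5 markers, the 15 largest called changes per direction with 1 sign and no overlap, up to 5 called members per list (up to 2 values where none was called) and paralogues, though not every gene the rule takes. Exceptions are marked as picked after their values were seen. The pipeline was tested on simulated data. Same-numbered arrays were checked for pairing: over 18 pairs the correlation of their deviations was -0.21 to 0.53 with a median of -0.02, so numbers were not used as pairs. The highest values were those of ethanol and acetate arrays 1 (0.53) and of ethanol and acetate arrays 3 (0.43). Arrays 2 of these sources were at -0.08, and arrays of unlike number reached at most 0.31. The cause of these correlations was not tested. Arrays have no read depth, and their number limits the precision. RTM1 and AAD16 matched no probe set, and no genome build was used.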

Additional observations from a re-analysis of the deposited data

Results flagged for a closer look

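Within the sugars, INO1 differed between maltose and glucose by log2 -1.10 ± 0.20 (maltose minus glucose, adjusted p = 0.0304, limma), with all 3 maltose arrays below all 3 glucose arrays. Within the C2 compounds, SIT1, a siderophore transporter gene, differed by log2 -2.52 ± 0.34 (ethanol minus acetate, adjusted p = 0.0046, limma). It read 79.7, 103 and 82.3 on ethanol, 615, 369 and 566 on acetate, 115, 174 and 62.5 on maltose and 102, 97.0 and 63.6 on glucose arrays, so that its rise on C2 compounds rests on acetate. A control probe set for a Bacillus transcript, AFFX-ThrX-3, outside all comparisons, read 3648 on glucose array 2 and at most 2.70 on the other 11 arrays.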

How the results depend on the processing

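By probe set the comparison gave 1225 calls, 817 higher and 408 lower, with 101 called in each of the 4 pairs. The replicate block gave 1298 calls, of which 1192 were shared. It was added although the pairing check found no pairing common to all 4 sources. In that check 8 of 12 arrays correlated best with another array of their own number. Without a single array the counts ran from 705 to 1524 in all, from 469 to 1111 higher, from 236 to 497 lower and from 55 to 123 in each pair. The 388 higher and 284 lower genes outside central carbon metabolism then ran from 220 to 607 and from 160 to 366. The lowest 5 totals of probe sets came without ethanol array 2 or 3, acetate array 2 or 3 or glucose array 3, the highest total and higher count without maltose array 3, and the highest lower count without maltose array 2.

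Counts also differed by more than 1.5 times under these alternatives, given as all, higher and lower probe sets, then higher and lower genes, then probe sets called in each pair where each of these moved. With the 3'/5' covariate they were 147, 81, 66, 47, 46 and 34. On array 1 of each C2 source alone they were 172, 136, 36, 39, 26 and 22, on 2 C2 arrays. Array weights gave 2826, 1689, 1137, 868, 792 and 491. With glucose arrays 1 and 3 left out, so that glucose had 1 array, they were 478, 291, 187, 123, 129 and 38. Against glucose alone they were 481, 294, 187, 110 and 132. Blocking on the code letter, 568 probe sets were called, 288 of them higher, with 149 higher and 147 lower genes and 54 in each pair. Among arrays of letter P it was 699, 375 higher, with 203 higher genes and 56 in each pair. With no filter 789 were called, 244 lower, with 178 lower genes, and with a mean signal of at least 100 there were 761, 418 higher, on 9275 and fewer probe sets. Quantile normalization gave 434 lower genes. The signals as deposited, a floor of 50, no intensity trend, maltose alone and the removal of probe sets above 2000, which was chosen after seeing the data, kept all 6 counts within 1.5 times.

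Of the named genes, with the covariate KRR1 was at log2 0.020, RAS1 at 0.0085, TIF3 at 0.031, TSC10 at 0.057, RPC40 at 0.41, POS5 at 0.23 and REG1 at 0.39, each with the sign opposite to the change on all arrays. On array 1 of each C2 source alone RPC40 was at 0.025, POS5 at 0.077 and REG1 at 0.092. CYC1 was at -0.018 against glucose alone and UTR1 at 0.18 against maltose alone. Apart from the values computed on fewer arrays or fewer probe sets, the causes were not tested.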
